A study of Canis lupus familiaris with 14 samples.

Results

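The genes described here are 10 genes of the stromal matrix and its protease inhibitors, taken as the genes whose array annotation gave exactly 1 of the symbols DCN, LUM, BGN, FN1, TNC, SPARC, POSTN, TIMP1, TIMP2 and TIMP3. They were read by 19 probe sets, and they are 10 of the 15115 genes with such an annotation. A probe set is a group of short probes that report 1 transcript as 1 signal, and values are log2 of that signal, averaged over the probe sets of a gene. Each probe binds with its own strength, so signals of different genes were not set against one another.

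The lymphomas were fine needle aspirates of lymph nodes of companion dogs with naturally occurring disease, 7 labelled B-cell lymphoma (RB03, RB07, RB10 and RB16 from a single clinic, NE41 and NE42 from another and FS21 from the third) and 3 labelled T-cell lymphoma (FS22, FS25 and NE45). They were taken at 3 clinics before a PI3K inhibitor was given, and FS21, RB07, FS22 and FS25 had relapsed after chemotherapy. The breeds were mixed, with RB07, RB10 and FS25 from Boxers and FS22 from a Beagle. The normal nodes, 63, 2970, 3024r and 3024l, were those of 3 colony Beagles, the last pair from the same dog. The methods call the normal samples aspirates, while the labels call them lymph node tissue, so it is not settled that both groups were sampled alike. Colony, clinic and way of sampling cannot be told apart from disease in these arrays, and only the Beagle FS22 shared the breed of the normal nodes. FS22 had log2 signals of 2.62 in DCN and 8.15 in TIMP3, against 8.40 to 9.62 and 9.88 to 11.44 in the Beagle nodes. It was the highest lymphoma in LUM (7.08) and the highest after RB07 in TIMP2 (8.59) and TIMP3. FS22 is a single dog, and the part of breed was not tested.

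The study clustered the same expression profiles into the lymphoma classes E-J (FS21, FS22, NE41, NE42, RB03 and RB16) and K-N (FS25, NE45, RB07 and RB10). Since the classes came from these profiles, levels by class are given as a description with no test. The median signal of an array lay between 85.6 and 131. A control for RNA quality, the ratio of the 3' to the 5' signal of actin, was 4625 on 3024l and 94.1 to 302 elsewhere. It was 95.8 on 63, 98.4 on 2970 and 123 on 3024r. Among the lymphomas it was 94.1 on FS21, and the others, from 128 (RB07) to 302 (NE42), lay above those nodes. The part of RNA quality in the differences from normal was not tested. Since 3024l and 3024r came from the same dog, tests used 3024r alone for that dog. RB07 and RB10, labelled B-cell, and FS22, labelled T-cell, went against their labels: the B-cell markers of RB07 had a mean log2 signal of 4.55, against 8.88 to 11.27 in E-J, and its T-cell markers had a mean of 10.99, against 7.22 to 8.42 in E-J. The same means were 7.78 and 10.69 in RB10 and 8.88 and 7.50 in FS22.

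Stroma is the scaffold of a lymph node, a mesh of collagen fibres laid down and wrapped by fibroblastic reticular cells, along which lymphocytes move. Decorin, lumican and biglycan are small leucine-rich proteoglycans that bind collagen and set how its fibres assemble. Fibronectin, tenascin C, SPARC and periostin are secreted proteins that affect how cells attach to matrix and are made in quantity where tissue is remodelled. The TIMPs are inhibitors of the metalloproteinases that cut this matrix. In whole samples such as these, fewer stromal cells and less RNA per stromal cell cannot be told apart.

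**Figure D1:**
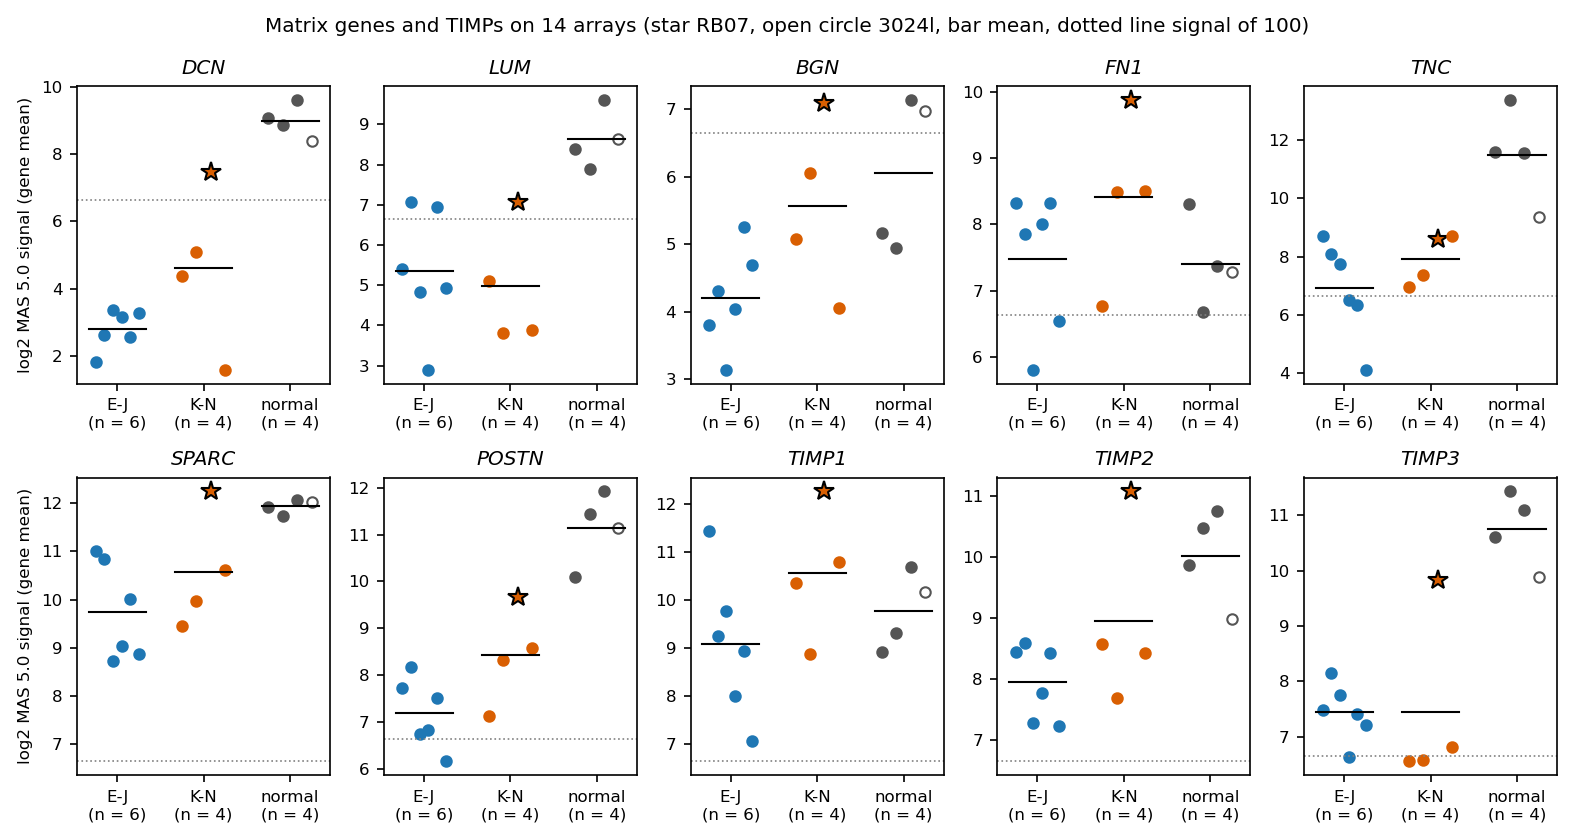
Log2 signal of the 10 genes on each array (vertical axis), by E-J, K-N and normal node (horizontal axis). Points are arrays, the star is RB07, the open circle is 3024l, the bar is the group mean and the dotted line a signal of 100. All E-J points of DCN, LUM, TNC, SPARC, POSTN, TIMP2 and TIMP3 lie below all 4 normal nodes, while BGN, FN1 and TIMP1 overlap.

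Decorin was dim in every lymphoma but RB07. The DCN log2 signals of the E-J lymphomas had a lowest value of 1.83, a median of 2.88 and a highest value of 3.36. In K-N they were 4.38 in FS25, 5.08 in NE45, 7.46 in RB07 and 1.59 in RB10, and in the normal nodes 9.06 in 63, 8.87 in 2970, 9.62 in 3024r and 8.40 in 3024l. No lymphoma reached the lowest normal node, and RB07 was the only lymphoma with a DCN signal of at least 100, the level below which a signal was treated as dim. Over the 10 lymphomas DCN averaged 3.53 ± 1.74 (SD, n = 10), against 9.18 ± 0.39 (SD, n = 3) in the normal nodes 63, 2970 and 3024r, which is a log2 difference of -5.65 with a standard error of 0.96 (limma, adjusted p = 0.00728). Differences against dim signals are not exact, so folds written "at least" set the measured mean of the brighter group against that of the other group with each probe set under 100 taken as 100. DCN was at least 5.49-fold lower in lymphoma.

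Lumican lies beside decorin in the dog genome and is likewise a collagen-binding proteoglycan. Its log2 signals ran from 2.89 to 7.08 in E-J, with a median of 5.16, and were 5.11 in FS25, 3.81 in NE45, 7.07 in RB07 and 3.89 in RB10. The normal nodes had 8.38 in 63, 7.90 in 2970, 9.62 in 3024r and 8.63 in 3024l. FS22, RB07 and RB03, at 7.08, 7.07 and 6.95, were the highest lymphomas, and all 10 lay below the lowest normal node. LUM was at least 3.61-fold lower in lymphoma, with a difference of -3.44 in log2 signal (standard error 0.84, adjusted p = 0.0347 from limma). Tested on their own, its 2 probe sets missed the threshold, at adjusted p = 0.101 and 0.0532.

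Biglycan carries glycosaminoglycan chains like decorin. Its gene mean was too dim to be tested, as fewer than 3 of the arrays compared, which left out 3024l, had a signal of 100. Its BGN log2 signals were 3.14 to 5.26 in E-J, 5.08 in FS25, 6.06 in NE45, 7.09 in RB07 and 4.05 in RB10. The normal nodes had 5.17 in 63, 4.94 in 2970, 7.14 in 3024r and 6.97 in 3024l, so the groups overlapped. The gene mean joined a pair of probe sets that differed. The brighter of them had log2 signals of 2.59 to 5.55 in E-J, 6.96 in FS25, 6.98 in NE45, 8.35 in RB07 and 3.48 in RB10, against 7.47, 6.53, 7.88 and 7.77 in 63, 2970, 3024r and 3024l. On that probe set every E-J lymphoma lay below every normal node, while 3 of the K-N lymphomas did not, and the difference over all 10 lymphomas was -2.44 ± 1.10 (standard error; limma, adjusted p = 0.233). The other probe set reached a signal of 100 on 1 array, the lymphoma RB03.

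Tenascin C, a large glycoprotein that loosens the attachment of cells to matrix, had log2 signals of 4.11 to 8.70 in E-J, with a median of 7.13. In K-N its signals were 6.95 in FS25, 7.36 in NE45, 8.59 in RB07 and 8.72 in RB10. The TNC signals of the normal nodes were 11.58 in 63, 13.39 in 2970, 11.56 in 3024r and 9.36 in 3024l. All lymphomas lay below all normal nodes, and TNC was at least 23.7-fold lower in lymphoma (difference -4.86, standard error 0.83, adjusted p = 0.00763 from limma). RB16 stood at the low end with 4.11, and the next lymphoma had 6.34. The normal node 3024l, with the high actin ratio, was the lowest of the 4.

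Periostin, a matricellular protein of fibroblasts that binds tenascin C and collagen, had log2 signals of 6.16 to 8.18 in E-J, with a median of 7.18. In K-N its signals were 7.14 in FS25, 8.32 in NE45, 9.67 in RB07 and 8.59 in RB10, and in the normal nodes 10.09 in 63, 11.43 in 2970, 11.93 in 3024r and 11.15 in 3024l. RB07 came nearest to node 63, the lowest, and no lymphoma overlapped the normal nodes. POSTN was at least 10.7-fold lower in lymphoma, with a difference of -3.46 ± 0.63 (standard error; limma, adjusted p = 0.0103).

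SPARC, a collagen-binding glycoprotein also called osteonectin, had log2 signals that spread from 8.73 to 11.01 in E-J and were 9.45 in FS25, 9.98 in NE45, 12.25 in RB07 and 10.61 in RB10. The normal nodes lay close together, at 11.92 in 63, 11.73 in 2970, 12.06 in 3024r and 12.02 in 3024l. RB07 alone exceeded the normal nodes. The difference of -1.82 in SPARC log2 signal over all 10 lymphomas missed the threshold (standard error 0.62, 95% interval -3.17 to -0.48, adjusted p = 0.112 from limma). Without RB07 it was -2.07, with an adjusted p of 0.0294 from limma. As RB07 was singled out for its high signal, leaving it out had to lower the lymphoma mean. That p is a description and no support for a call.

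Fibronectin, the adhesion protein bound by integrins, overlapped throughout. Its FN1 log2 signals were 5.81 to 8.33 in E-J, 6.78 in FS25, 8.49 in NE45, 9.88 in RB07 and 8.51 in RB10, against 8.31, 6.68, 7.37 and 7.28 in 63, 2970, 3024r and 3024l. The difference was 0.40 (95% interval -1.08 to 1.88, adjusted p = 0.786 from limma), so a change of over 1 log2 unit in either direction was within the interval. The 4 FN1 probe sets gave differences of 2.46, -0.16, 0.01 and -0.71, none past the threshold. The gene mean turned to a difference of -0.05 with the mean of linear signals, so no direction is given for FN1. The brightest of these had log2 signals of 9.15 to 11.56 in E-J and 11.38, 11.76, 13.16 and 12.45 in FS25, NE45, RB07 and RB10, against 10.90, 11.20, 11.71 and 12.26 in 63, 2970, 3024r and 3024l.

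**Figure D2:**
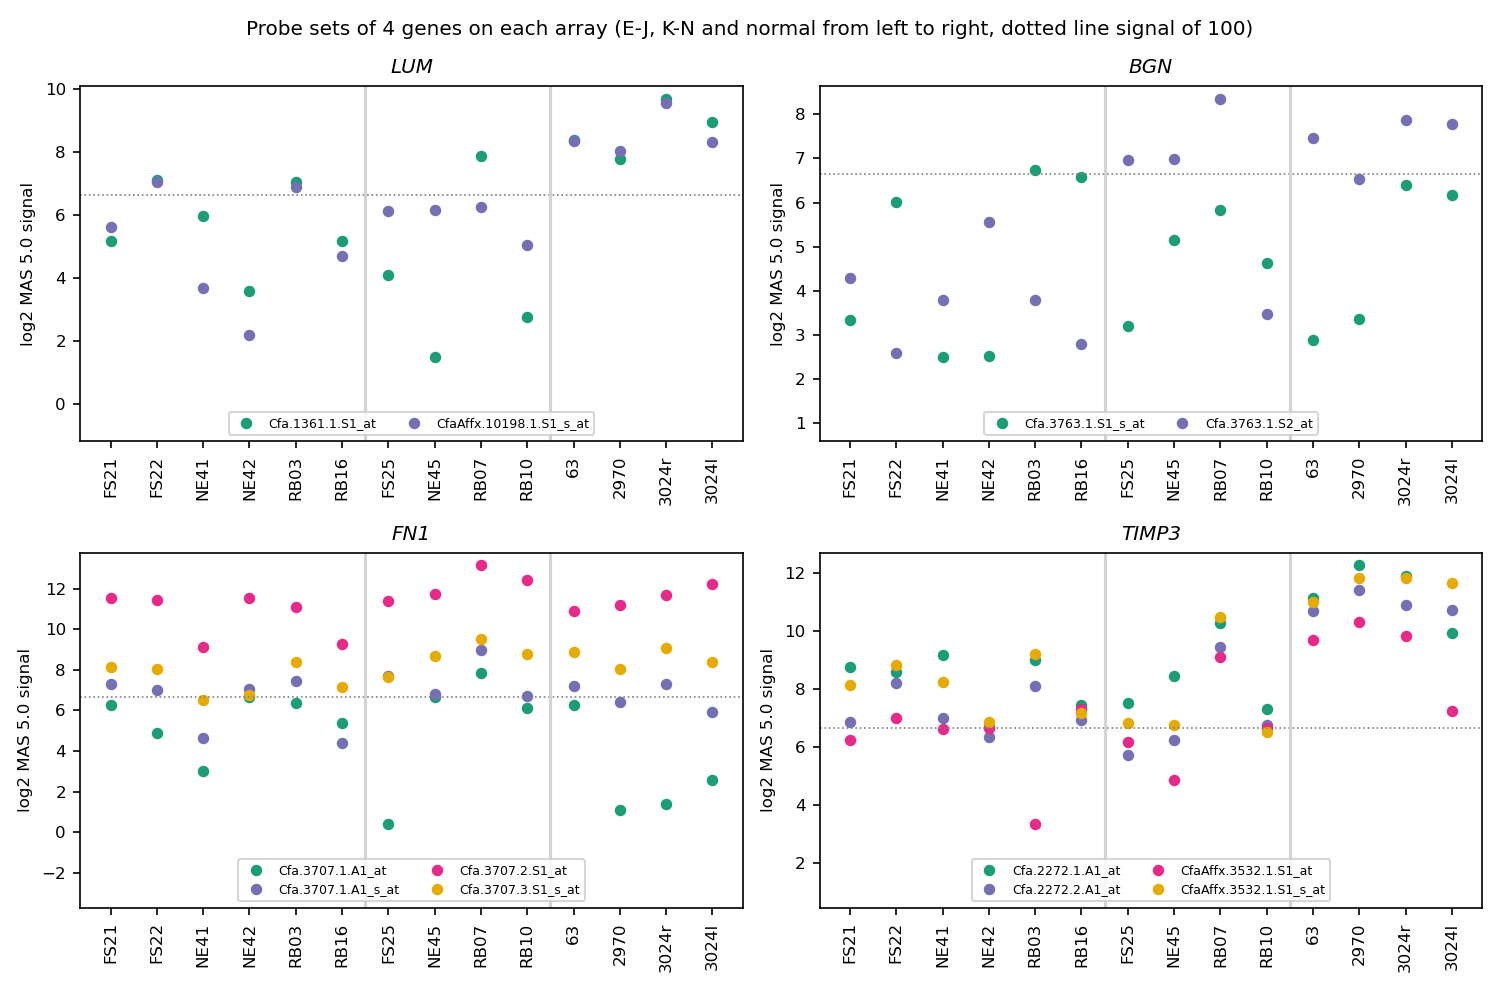
Log2 signal of each probe set (vertical axis, colours) of LUM, BGN, FN1 and TIMP3 on each array (horizontal axis: E-J, K-N and normal from left to right, dotted line a signal of 100). All 4 TIMP3 probe sets have a lower mean in lymphoma than in normal nodes, but 1 of them drops in RB03 (3.35) and 3024l (7.24). Those of FN1 and BGN differ in level and in how the groups lie.

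Of the 3 inhibitors, TIMP3 passed the threshold in all lymphomas and TIMP1 and TIMP2 did not. TIMP3, which is held in the matrix and also blocks ADAM proteases and a receptor of vascular growth factor, had log2 signals of 6.63 to 8.15 in E-J, 6.55 in FS25, 6.57 in NE45, 9.83 in RB07 and 6.81 in RB10. The normal nodes had 10.61 in 63, 11.44 in 2970, 11.10 in 3024r and 9.88 in 3024l. Leaving RB07 aside, the highest lymphoma, FS22 at 8.15, lay well below the lowest node. TIMP3 was at least 10.7-fold lower in lymphoma (difference -3.61, standard error 0.57, adjusted p = 0.00569 from limma), and each of its 4 probe sets passed on its own, with differences of -3.43, -3.82, -3.54 and -3.65.

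TIMP2, which also takes part in the activation of MMP2 by MMP14, had log2 signals of 7.23 to 8.59 in E-J, 8.57 in FS25, 7.69 in NE45, 11.08 in RB07 and 8.43 in RB10. The normal nodes had 9.86 in 63, 10.48 in 2970, 10.76 in 3024r and 8.98 in 3024l. All lymphomas other than RB07 were below all normal nodes, and RB07 was above them. The TIMP2 difference was -2.02 (standard error 0.62, 95% interval -3.36 to -0.68, adjusted p = 0.0818 from limma). Without RB07 it was -2.32 with an adjusted p of 0.00487 from limma. RB07 was the highest lymphoma and was singled out for its high stromal signal. Leaving it out had to lower the lymphoma mean, so this p is a description and no support for a call.

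TIMP1, a secreted inhibitor that inflammatory signals induce, overlapped between lymphoma and normal. Its log2 signals were 7.07 to 11.44 in E-J, 10.36 in FS25, 8.87 in NE45, 12.27 in RB07 and 10.79 in RB10, against 8.92, 9.32, 10.68 and 10.16 in 63, 2970, 3024r and 3024l. RB07, FS21 and RB10 lay above every normal node and RB16, NE42 and NE45 below every one. The TIMP1 difference was 0.04 (95% interval -1.90 to 1.98, adjusted p = 0.988 from limma), and without RB07 it was -0.25.

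Of the 10 genes, 9 were tested in all 10 lymphomas against 3 normal nodes, and DCN, LUM, TNC, POSTN and TIMP3 fell in lymphoma while none rose. Over all 9295 genes tested, 3.85% fell and 1.19% rose. The 10 genes and the lists below were chosen with earlier results of these data known. Their counts stand beside these shares as a description and no test. Every lymphoma lay below every normal node for 5 of the 10 genes, against 6.92% of all genes tested. The median difference of the 9 genes was -3.44 beside -0.13 for all genes tested, and with signals under 100 taken as 100 the medians were -2.02 and -0.02. DCN had 3 normal nodes and RB07 at a signal of 100, so it entered the test largely through the group in which it was high. The calls rested on the small normal group: without node 2970 none of the 9 genes passed, with adjusted p values of 0.0632 for DCN and TIMP3, and without 3024r only TNC and TIMP3 did.

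**Figure D3:**
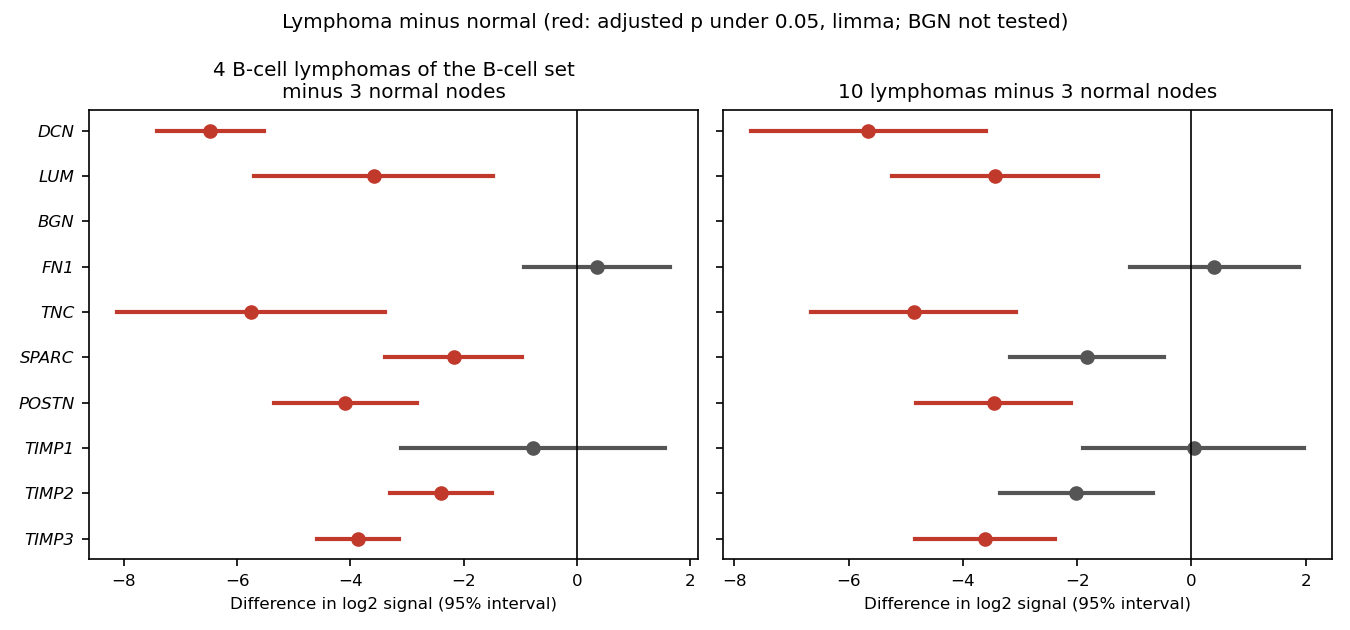
Difference in log2 signal (horizontal axis, points, with 95% intervals as lines) for the 9 tested genes (vertical axis) in the 4 lymphomas of the B-cell set (left) and in all 10 lymphomas (right), each minus normal nodes 63, 2970 and 3024r. Red marks an adjusted p under 0.05 from limma. SPARC and TIMP2 are red on the left only, FN1 and TIMP1 lie across 0 on both sides, and DCN and LUM rest on mostly dim lymphoma signals.

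The study's B-cell set, FS21, NE42, RB03 and RB16, was chosen by cytology, CD79a staining and, in part, the expression profiles. Against the same 3 normal nodes, 7 of the 9 genes tested fell and none rose, beside 7.39% of 8295 genes that fell and 3.48% that rose. The 7 calls became 3 when dim genes were kept, 4 with all 13 dogs in 1 fit and 1 with the methods' t-test. Both comparisons share the normal nodes and these 4 lymphomas, so the values below are set beside the earlier ones and are not a repeat of them. All 4 lymphomas lay below all 3 nodes for 7 of the 10 genes, against 18.0% of all genes tested. DCN, which is in both counts of 7, entered the test only through the normal nodes, so its separation was fixed by the filter.

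In the B-cell set DCN was 1.83 in FS21, 3.15 in NE42, 2.57 in RB03 and 3.29 in RB16, a difference of -6.47 from normal with a standard error of 0.40 (limma, adjusted p = 0.000954), or at least 5.81-fold lower. None of these 4 signals reached 100, so DCN entered the test only through the 3 normal nodes, in which it was high, and the size of its difference is not exact. TNC, at 8.70, 6.51, 6.34 and 4.11 in the same order, was at least 32.4-fold lower (difference -5.76, adjusted p = 0.0193). POSTN was at least 15.7-fold lower (difference -4.09, adjusted p = 0.00959) and TIMP3 at least 12.3-fold lower (difference -3.87, standard error 0.31, adjusted p = 0.00242). SPARC, at 11.01, 9.04, 10.01 and 8.87, was 4.51-fold lower (adjusted p = 0.0398). TIMP2, at 8.44, 7.76, 8.43 and 7.23, was 5.28-fold lower (adjusted p = 0.015). LUM was at least 3.76-fold lower (difference -3.59, adjusted p = 0.0464). FN1 differed by 0.35 (95% interval -0.94 to 1.65) and TIMP1 by -0.78 (95% interval -3.11 to 1.55), neither past the threshold. With 3024l in place of 3024r, 3 of the genes passed. Without 63, 2970 or 3024r the number was 2, 1 and 1, with DCN left untested since fewer than 3 arrays reached a signal of 100.

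RB07, a Boxer lymphoma labelled B-cell, was singled out because its stromal signal was known to be high, so its rank is a description and no test. It ranked highest of the 10 lymphomas for 8 of the 10 genes and for 16 of the 19 probe sets. It was the highest for 7 of the 9 tested genes and for 16.4% of all genes tested. The exceptions were LUM, in which FS22 was higher by a narrow margin, and TNC, in which RB10 and FS21 were higher. The number was also 8 with quantile scaling and with arrays centred on their medians, and 9 with the mean of linear signals.

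Against the median of the other 9 lymphomas, RB07 was 8.07-fold higher in TIMP1, 6.26-fold in TIMP2, 4.79-fold in SPARC, 4.44-fold in POSTN and 2.34-fold in TNC. It was at least 6.11-fold higher in TIMP3 and at least 2.92-fold higher in FN1. For DCN, BGN and LUM the median of the other lymphomas was under 100, and the bounds were only 1.76-fold, 1.36-fold and 1.34-fold. With signals under 100 taken as 100, the median log2 excess over the 10 genes was 1.85, and over all genes tested 0.01. The genes divided when RB07 was set against normal nodes 63, 2970 and 3024r. RB07 lay above all 3 in FN1 (9.88 against a mean of 7.45), TIMP1 (12.27 against 9.64), TIMP2 (11.08 against 10.36) and SPARC (12.25 against 11.91). It lay below all 3 in TNC by 3.59 from their mean, DCN by 1.72, LUM by 1.56, POSTN by 1.48 and TIMP3 by 1.23, and within their range in BGN. RB07 is a single array, and these values have no replicate check.

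**Figure D4:**
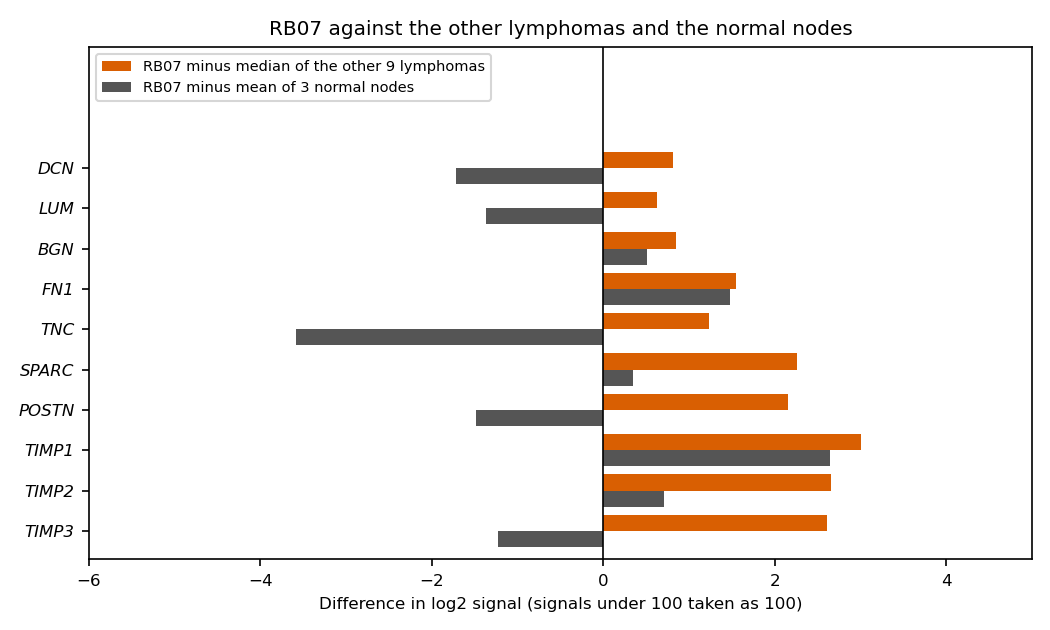
Difference in log2 signal, with signals under 100 taken as 100 (horizontal axis), of RB07 from the median of the other 9 lymphomas (upper bar of each pair) and from the mean of normal nodes 63, 2970 and 3024r (lower bar), for the 10 genes (vertical axis). The upper bars all run to the right, while the lower bars run left for DCN, LUM, TNC, POSTN and TIMP3 and right for the other 5.

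Markers of stromal cells in RB07 divided likewise. COL1A1, a chain of fibrillar collagen, had a log2 signal of 11.88 in RB07, against a range of 6.96 to 10.59 in E-J and a mean of 10.78 in the 3 normal nodes. The collagen chain COL6A3 had 7.81 in RB07 and 3.52 to 6.82 in E-J. COL1A2 had 8.61 in RB07 and 6.4 to 8.54 in E-J, and another K-N lymphoma had 9.17. COL3A1, at 7.11 in RB07, lay within the E-J range of 5.02 to 7.37. The contractile proteins TAGLN (10.29) and ACTA2 (11.00) in RB07 were above E-J, at 3.75 to 7.57 and 7.06 to 9.73, and TAGLN was also above its normal mean of 8.71. The other tested genes of the muscle and pericyte list were not: MYH11, a contractile protein as well, had 7.64 in RB07 and 5.04 to 10.01 in E-J, and RGS5, a pericyte marker, had a dim 3.81 in RB07 and 3.98 to 6.81 in E-J. CXCL12 and CCL21, chemokines of reticular cells of the node, were not: RB07 had 6.82 and 9.05, against 7.10 to 8.71 and 6.98 to 11.19 in E-J and means of 11.22 and 12.74 in the 3 normal nodes. PDGFRA, a growth factor receptor of fibroblasts, was 7.18 in RB07, within the E-J range of 5.97 to 8.26.

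Some markers of neutrophils and macrophages were high in RB07 too. RB07 was the highest lymphoma in 2 of 3 neutrophil and 5 of 12 macrophage markers tested, beside 16.4% of all genes tested. The macrophage marker CD14 had 11.6 in RB07, 6.97 to 8.21 in E-J and a mean of 9.8 in the 3 normal nodes. The neutrophil marker MPO had 7.52 in RB07, and another K-N lymphoma had 8.22. S100A9, a calcium-binding protein of neutrophils, had 12.43 in RB07, 5.38 to 9.88 in E-J and a mean of 11.20 in the 3 normal nodes. The neutrophil list had a summed signal of 9609 in RB07, 150 to 4579 in the other lymphomas and 1277 to 20215 in the 3 normal nodes. The fibroblast and reticular list had a summed signal of 7499 in RB07, 2392 to 15101 in the other lymphomas and 17320 to 37008 in the normal nodes, and its mean log2 signal was 7.86 in RB07 against 6.27 to 7.45 in the others. The part of these cells in the RB07 values was not tested.

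Without RB07, the other K-N lymphomas had a higher mean than E-J in 8 of the 10 genes and a lower one in TIMP3 and LUM. TIMP3 averaged 6.65 ± 0.14 (SD, n = 3) in FS25, NE45 and RB10 and 7.44 ± 0.51 (SD, n = 6) in E-J, and LUM averaged 4.27 ± 0.73 and 5.34 ± 1.56 in those groups. The 2 LUM probe sets differed in direction. The first had 4.10, 1.48 and 2.76 in FS25, NE45 and RB10 against an E-J mean of 5.68. The second had 6.12, 6.14 and 5.03 against 5.01. All these K-N signals of LUM were under 100, as were the DCN and BGN gene means of every lymphoma but RB07. POSTN averaged 8.01 ± 0.77 in the 3 K-N lymphomas and 7.19 ± 0.74 in E-J, and TIMP1 10.01 ± 1.01 and 9.08 ± 1.50. All E-J lymphomas lay below all 4 normal nodes for 7 of the 10 genes (7.96% of all genes tested), and all K-N lymphomas for 5 of the 10 (9.04%).

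No difference between the B-cell and T-cell labels was detected in these genes. Of 8 genes tested, none passed in 7 B-cell against 3 T-cell lymphomas, and none had an unadjusted p under 0.05. In that comparison limma called 0 of 8567 genes (0% in either direction), with 313 at an unadjusted p under 0.05, and the methods' t-test also called 0. Differences ran from -0.27 in POSTN (95% interval -1.79 to 1.24) to 0.50 in TIMP3 (95% interval -0.94 to 1.93), so changes of more than 1 log2 unit were not excluded. DCN, at 3.32 ± 1.96 (SD, n = 7) in B-cell and 4.03 ± 1.27 (SD, n = 3) in T-cell lymphomas, was too dim for this test. Leaving out RB07, RB10 and FS22, whose markers went against their labels, again gave 0 calls among the 10 genes. Over all genes tested in that alternative, which was chosen after seeing the data, limma called 267.

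Other matrix genes fell in part. Of 9 further proteoglycans tested, 2 fell and none rose in all lymphomas against normal nodes: the testican SPOCK3 (difference -4.39, at least 3.52-fold lower, adjusted p = 0.0169 from limma) and ECM2 (-2.65, at least 4.6-fold lower, adjusted p = 0.0446). Asporin (ASPN, -1.15) and PRELP (-1.41), which are leucine-rich repeat proteins like decorin, missed the threshold. A signal of 100 was reached in 1 lymphoma for SPOCK3 and in 2 for PRELP, so SPOCK3 entered the test largely through the normal nodes. The list had a median of -1.10, or -0.31 with signals under 100 taken as 100. Of 15 further glycoproteins, 3 fell and none rose, with a median of -1.66, or -1.20 with signals so raised. They were FSTL1, a relative of SPARC (-2.41, standard error 0.33, 5.31-fold lower, adjusted p = 0.00329), SPARCL1, the closest relative of SPARC (-2.89, at least 6.23-fold lower, adjusted p = 0.0136), and the fibulin EFEMP1 (-4.36, at least 6.3-fold lower, adjusted p = 0.0244). EFEMP1 reached a signal of 100 in 2 lymphomas, so it too entered the test largely through the normal nodes. TGFBI, a relative of periostin, had -2.72 with an adjusted p of 0.096.

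The proteases that TIMPs inhibit were mostly dim. Of 18 metalloproteinases and TIMP4 on the array, 8, among them MMP1, MMP3, MMP9 and MMP13, had signals under 100 on all 14 arrays, and limma called 0 of the 7 tested, with 3 at an unadjusted p under 0.05. The aggrecanase ADAMTS5 had a difference of -3.17 (adjusted p = 0.0648), the neutrophil collagenase MMP8 -3.25 (0.099), the gelatinase MMP2 -2.01 (0.169) and the membrane protease MMP14 -2.57 (0.292). No lymphoma reached a signal of 100 in MMP2 or MMP8, and the bounds were 1.16-fold and 2.93-fold, beside 4.8-fold for ADAMTS5 and 3.23-fold for MMP14. The list median was -2.01, or -0.84 with signals under 100 taken as 100. For ADAMTS5 every lymphoma lay below every normal node, as for 6.92% of all genes tested. MMP8 and MMP2 entered the test only through the normal nodes, so their separation was fixed by the filter.

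Of 18 cell-surface partners tested, 5 fell and none rose, beside 3.85% and 1.19% of all genes tested. The list median was -1.58, or -0.66 with signals under 100 taken as 100. The 5 included ITGA9, an integrin chain that binds tenascin C (-2.53, adjusted p = 0.0104 from limma), and STAB1, a scavenger receptor for SPARC (-3.48, at least 7.18-fold lower, adjusted p = 0.0229). Also among them were SDC4, a syndecan that binds fibronectin (-1.75, adjusted p = 0.0305), and LRP1, which clears complexes of proteases and inhibitors (-2.15, at least 2.13-fold lower, adjusted p = 0.0321). LRP1 reached a signal of 100 in 2 lymphomas. The integrin chain ITGA4 went the other way, with every lymphoma above the 3 normal nodes, but missed the threshold (1.09, adjusted p = 0.107).

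Markers of several cell types of the node were lower in the same lymphomas. Of 11 fibroblast and reticular markers tested, 5 fell, among them CXCL12 (-3.79, adjusted p = 0.00462 from limma), PDGFRA (-2.55, adjusted p = 0.00603), CCL21 (-3.67, adjusted p = 0.0143) and CCL19 (-2.79, adjusted p = 0.0347). The summed signal of that list was 2392 to 15101 in the lymphomas and 17320 to 37008 in the 3 normal nodes. Of 4 smooth muscle markers 1 fell, ACTA2 (-2.59, adjusted p = 0.0424), and that list summed to 512 to 3650 in lymphoma and 4946 to 5481 in normal nodes. The endothelial list had 4 of 7 lower, EMCN (-2.35, at least 3.62-fold), VWF (-2.24), LYVE1 (-4.36, at least 16.2-fold) and PECAM1 (-2.25), with sums of 1325 to 4191 in lymphoma and 9727 to 16468 in normal nodes.

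Macrophage markers fell most often, 10 of 12, beside 3.85% of all genes tested. Their lymphoma and normal sums, 1475 to 6715 and 30167 to 67947, did not overlap, like those of the fibroblast, muscle, endothelial and adipocyte lists. C1QB, a complement chain (-3.24, adjusted p = 0.000928), was joined by the receptors MARCO, at least 77.4-fold lower, CD209, at least 34.4-fold lower, and MRC1, at least 34.3-fold lower. CD209 reached a signal of 100 in 1 lymphoma. VSIG4, which was also called lower, reached it in none and entered the test only through the normal nodes. The adipocyte list had 1 of 2 tested lower, ADIPOQ (-3.04, at least 4.94-fold lower, adjusted p = 0.039), with sums of 136 to 959 in lymphoma and 2507 to 5164 in normal nodes. No gene of the fibroblast, muscle, endothelial, macrophage or adipocyte list rose. Limma called 0 of 3 neutrophil, 0 of 1 platelet and 0 of 1 erythroid genes tested (0, 0 and 1 at an unadjusted p under 0.05). It also called 0 of 4 B-cell and 0 of 10 T-cell markers (0 and 1). The defining genes COL6A1, CSPG4, CDH5, TEK, CLDN5, ESAM, CSF3R, PPBP, PLIN1 and CIDEC had signals under 100 on all 14 arrays. The part of any of these cell types in the values of the 10 genes was not tested.

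**Figure D5:**
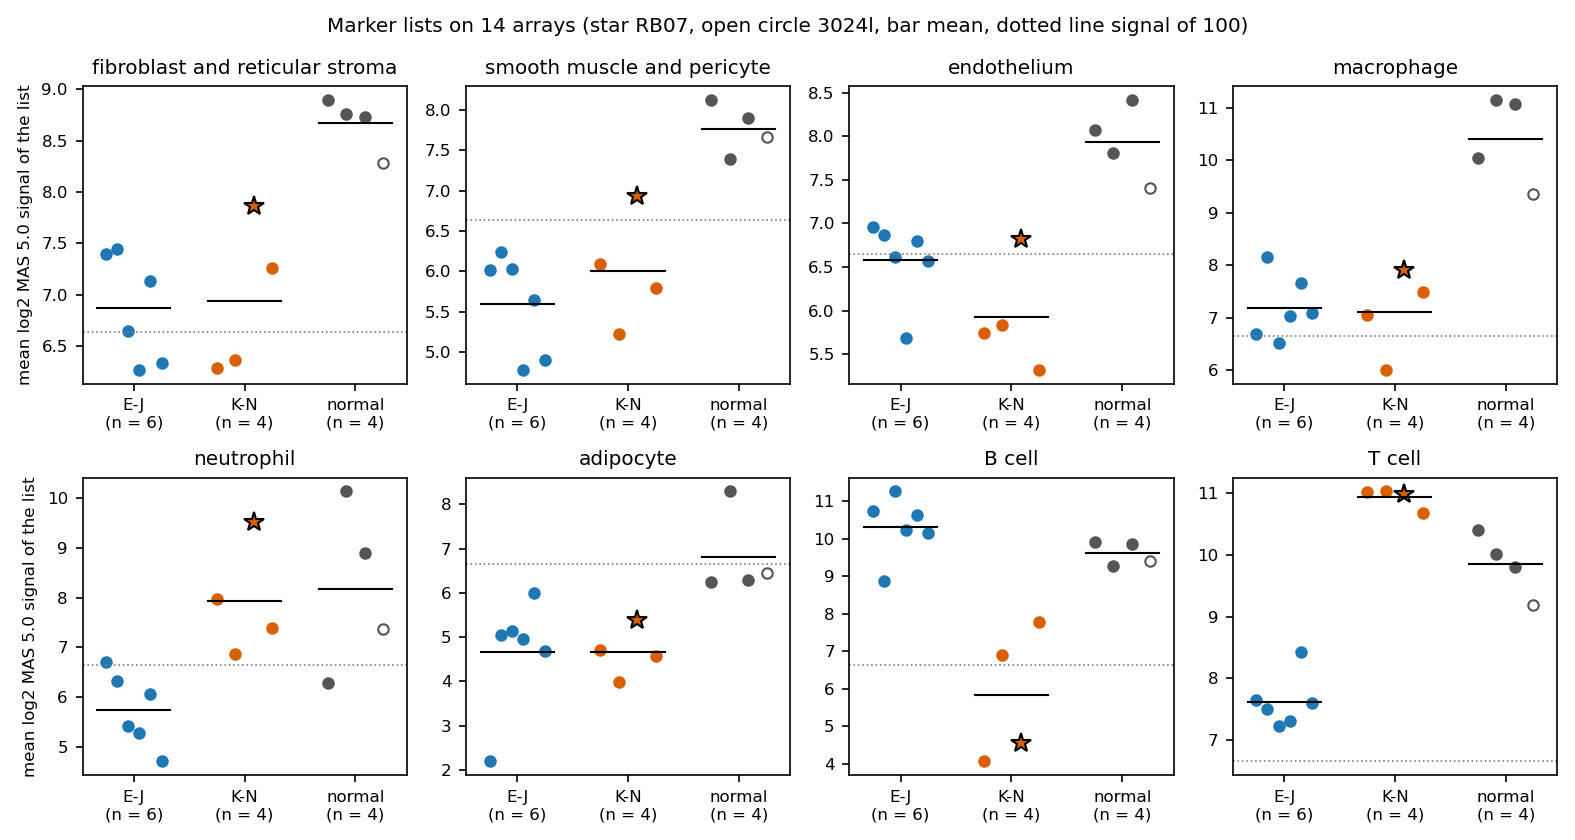
Mean log2 signal of 8 marker lists (vertical axis) on each array, by E-J, K-N and normal node (horizontal axis). Points are arrays, the star is RB07, the open circle is 3024l, the bar is the group mean and the dotted line a signal of 100. The macrophage, endothelial, fibroblast, smooth muscle and adipocyte lists separate the 4 normal nodes from all lymphomas, and RB07 is the highest lymphoma in the fibroblast, smooth muscle and neutrophil lists.

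Each gene's profile was set against all others by the mean absolute distance of log2 signals, centred on each gene's mean, over the 13 arrays of 1 per dog. The profiles nearest to SPARC were those of COL1A1 (0.38), the fibrillin FBN1 (0.40) and COL3A1 (0.41), all fibre proteins, against a median distance of 1.16 over all genes. TIMP2 was nearest to HSPB1 (0.34), ANXA1 (0.39) and ASAH1 (0.43), genes in which RB07 also had high signals, of 11.39, 11.85 and 11.35. POSTN was nearest to CSF1R (0.54), LHFPL6 (0.57) and SH3D19 (0.59), and TIMP3 to ADGRF5 (0.50), LOC403708 (0.54), which RefSeq lists with the synonym CTSL, and C1QB (0.55). TNC was nearest to RND3 (0.77), PLVAP (0.80), a protein of endothelial diaphragms, and STAB1 (0.81), with POSTN next at 0.90.

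For LUM the nearest were CHRM2 (0.54), PLEKHG5 (0.71) and SIGLEC1 (0.72), and for BGN its relative ASPN (0.54), ANXA6 (0.56) and SOST (0.56). DCN was nearest to MFAP3L (1.10), LOC478984 (1.15) and GPX3 (1.24), against a median of 2.48. FN1 was nearest to MMACHC (0.38), MTHFSD (0.47) and CORO6 (0.49), and TIMP1 to HDAC5 (0.63), TFPI2 (0.68) and DDAH2 (0.70). These distances describe 13 arrays that share the difference between lymphoma and normal nodes.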

How the data were processed

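Aspirate RNA was amplified, labelled and hybridised to GeneChip Canine Genome V2.0 arrays, and the authors computed the deposited intensity of each probe set with MAS 5.0, scaled to a trimmed mean per array. Genes were named from the platform annotation: of 43035 probe sets, 29254 had 1 symbol after 111 controls were left out, 439 had several, and no per-sample column went unused. Log2 intensities were averaged over the probe sets of a gene. A gene entered a comparison when 3 or more of its arrays had signals of 100 or above, and limma 3.58.1 in R 4.3.3 was applied (two-sided, Benjamini-Hochberg, threshold 0.05) after being tested on simulated data. No sequence depth applies to arrays, and the number of arrays limits precision. Named genes were the 10 genes, up to 4 per list with the smallest p, and up to 3 nearest profiles. Members, lists and RB07 were chosen with earlier results of these data known. Gene order came from RefSeq (UU_Cfam_GSD_1.0). Alternatives varied the filter, scaling, floor, summary, test and arrays. Figures used matplotlib 3.10.9.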

Additional observations from a re-analysis of the deposited data

Results flagged for a closer look

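Of 30 groups of values examined for a single array far from the others, 6 were marked, and chance marks about 1 in 20. In 5 of them RB07 was the highest array, but RB07 was singled out for its high signal, and the 7 B-cell lymphomas are among the 10, so the number of marks supports nothing. Its TIMP2 log2 signal of 11.08 stood apart from the next lymphoma, at 8.59, among all 10 (gap over range 0.648), and from 8.44 among the 7 labelled B-cell (0.687). Its TIMP3 signal of 9.83 stood apart from 8.15 among the 10 lymphomas (0.512) and from 7.75 among the 7 B-cell (0.649). Its DCN signal of 7.46 stood apart from 3.36 among the 7 B-cell lymphomas (0.699), where the other signals were under 100 and the gap is not exact. Over all genes tested, RB07 was the highest lymphoma and past the same limit for 0.473%. The TNC signal of RB16, 4.11, was the lowest of the 10 lymphomas, with the next at 6.34 (0.484).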

How the results depend on the processing

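Of 622 values recomputed for the 9 tested genes, 521 kept direction and side of the threshold, 50 lost and 8 gained a call, and 43 turned sign, those in FN1 or TIMP1 or between B-cell and T-cell lymphomas; the cause was not tested. The 5 calls in all lymphomas ranged from 0 to 7 with 1 array left out: 0 without 2970, 2 without 3024r, 4 without 63 and 7 without RB07. RB07 was singled out for its high signal, so the last count adds no support. The 7 calls in the B-cell set ranged from 1 to 7, and were 3 with no filter on dim genes, 3 with 3024l in place of 3024r, 4 with all 13 dogs in 1 fit and 1 with the methods' t-test.

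Over all genes, the 469 calls in all lymphomas became 194 with no filter, 870 with 50 added to signals, 1053 with signals raised to at least 100, 720 with probe sets tested singly, 1419 with the methods' t-test, 197 with 3024l, and 30 to 623 with 1 array left out (30 without 2970, 57 without 3024r, 115 without 63). The 902 calls in the B-cell set became 193, 1613, 1807, 1390, 8 and 232 under the same settings, 419 with all 13 dogs in the fit, 1424 with linear means and 15 to 1207 with 1 array left out. The share of calls that were lower was 76.3% in all lymphomas, 64.2% with quantile scaling and 62.9% with the brightest probe set, and 68.0% in the B-cell set, 56.0% with quantile scaling, 58.2% with a trended prior and 83.4% with no filter. The median difference over all genes moved from -0.127 to 0.006 with quantile scaling and to 0.023 with median centring. B-cell against T-cell lymphomas had 0 to 1 calls with 1 array left out, and 267 without RB07, RB10 and FS22, an alternative chosen after seeing the data, from expression of the markers.

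FN1 turned in all lymphomas to -0.09 with raised signals, -0.052 with linear means and -0.285 with dim probe sets left out, and TIMP1 to -0.251 without RB07 (-0.324 to 0.557 over single arrays left out). FN1 in the B-cell set turned to -0.151 with 50 added, -0.343 with raised signals, -0.421 with linear means, -0.4 with the brightest probe set and -0.62 with dim probe sets out (-0.033 to 0.781). Between B-cell and T-cell lymphomas FN1 turned to -0.037, -0.079, -0.307, -0.347 and -0.368 under those settings, and to -0.227 without the 3 arrays, where TIMP1 was -0.572 and TIMP2 -0.303. With the clinic as a block FN1 was -0.283, TNC 0.472 and TIMP2 -0.157, and TNC was 0.199 with raised signals. With 1 array left out, FN1 ranged from -0.255 to 0.601, LUM -0.96 to 0.176, TNC -0.484 to 0.299, SPARC -0.385 to 0.356, TIMP1 -0.163 to 0.705 and TIMP2 -0.355 to 0.286.

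Dim probe sets were left out as an alternative added after seeing the data. A fit of all 4 normal nodes with the dog as a random block was not run, since 1 repeated dog gave no estimate of the correlation. No paired analysis was possible because lymphoma and normal nodes came from different dogs. Signals under 100 limit DCN, LUM and BGN in lymphoma to bounds, and in part TNC, POSTN, TIMP3 and several list genes, CD209 and MMP2 among them.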
